A study of Mus musculus with 6 samples.

Results

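COPII and COPI are the protein coats that carry cargo in both directions between the endoplasmic reticulum (ER) and the Golgi. The genes described here are 38 that encode these coats, the receptors that load cargo into the vesicles, and the tethers and SNAREs that let the vesicles dock and fuse. They were picked by symbol, with earlier results of these data known. All 38 had a mean of at least 10 normalised counts, as did 13199 of the 55291 genes in the table. By role they fall into 14 genes of the COPII coat, 11 cargo receptors, 7 subunits of the COPI coat, and 6 tethers and SNAREs.

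The RNA came from the mouse line LLC (Lewis lung carcinoma), grown untreated in culture and sequenced. The labels name 2 groups of 3 libraries. Calr KO cells had received Cas9 and a guide RNA against Calr, the gene of the ER chaperone calreticulin, and control cells, labelled WT, had received Cas9 with a control guide. Cells were kept for 10 days after delivery and collected 48 hours after plating, and every library has the same batch label. The 3 libraries of a group came from separate wells, and no selected clone is described. Whether a group came from more than 1 delivery of Cas9 is not stated, so p-values measure the spread between these libraries, which may be technical.

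Calr, the targeted gene, had 4467, 4216 and 4453 normalised counts in the Calr KO libraries and 10711, 10202 and 11047 in the controls. The groups did not overlap, and transcript was still present in every Calr KO library. Library totals lay between 14040692 and 14099985 normalised counts, or an estimated 13565886 to 14920619 reads. Of 10 lung epithelial markers, 5 were at 0 in all libraries (Epcam, Krt19, Nkx2-1, Sftpc and Scgb1a1), while Krt8 averaged 4621 and the mesenchymal gene Vim 37861. The epithelial markers summed to 4973 to 5246 in Calr KO and to 4643 to 4940 in control, without overlap, with most counts from Krt8. Lymphocyte markers summed to at most 3.15 normalised counts in any library, and the 7 macrophage markers to 65.1 to 114 in Calr KO and 75.5 to 97.1 in control. The 5 endothelial markers summed to 46.1 to 60.3 in Calr KO against 37.3 to 45.2 in control, with 2 of the 5 at a mean of at least 10 and Emcn at 0. The 7 fibroblast markers, with most counts from Col3a1, summed to 22730 to 24347 against 22026 to 22915. The 5 mesenchymal markers summed to 45028 to 47165 against 49170 to 51480. The mitochondrial share of the counts was 2.89% to 2.97% in Calr KO and 2.78% to 2.80% in control. The part of these shifts in the results that follow was not tested.

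In the cell, the small GTPase SAR1 recruits the COPII coat to ER exit sites, where SEC24 binds cargo directly or through receptors that span the membrane. The receptors of the p24 or TMED family and the lectins LMAN1 and LMAN2 pick up soluble and glycosylated proteins that have no other contact with the coat. COPI vesicles return the receptors and escaped ER proteins from the Golgi. Calreticulin is itself a lectin that holds new glycoproteins in the ER until they are folded, one step before this traffic.

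Most cargo receptor genes had a higher mean in Calr KO cells than in control cells, and the medians of the coat classes lay closer to 0. Of the 11 cargo receptors, 10 had a higher mean in Calr KO, with a class median of 0.14 on the log2 scale and a highest fold of 1.30, for Tmed2. The COPII coat had a median log2 change of 0.05, the COPI coat 0.01, the tethers and SNAREs 0.01, and all tested genes 0.00036. None of the 38 genes passed the test over all genes in either direction, by limma with Benjamini-Hochberg adjustment and a threshold of 0.05, where 0.197% of tested genes were called higher and 0.0833% lower. With voom weights 0 of the 38 passed as well.

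At an unadjusted p under 0.05, 10 of the 38 were higher and 1 was lower, against 4.6% and 4.28% of all tested genes. Of the 10, 9 were cargo receptors and 1 was the tether Uso1; the lower gene was the tether Golgb1. In 10 of the 38, every Calr KO library was above every control, as in 7.57% of tested genes, and in 1 every library was below, as in 7.28%. Of the cargo receptors 7 of 11 showed such a separation upward, of the COPII coat 1 of 14, of the COPI coat 1 of 7, and of the tethers and SNAREs 1 of 6. Genes with high counts have smaller errors, and all 38 averaged above 500 normalised counts. Among the 5797 genes at that level, 6.02% were higher at an unadjusted p under 0.05 and 8.63% were separated upward. Because the 38 were listed with earlier results of these data known, these shares describe the classes and do not test them. Without 1 library, the count of cargo receptors at an unadjusted p under 0.05 was 5 of 11 when either Calr KO replicate 1 or 3 or control replicate 2 was left out. It was 4 of 11 when 1 variance prior was used for all levels. With 0.5 rather than 1 added before taking logs, or with equal column totals, the count was 8 of 11. Scaling by the upper quartile gave 7 of 11. Mcfd2 stood at the edge, with an unadjusted limma p of 0.0499.

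**Figure D1:**
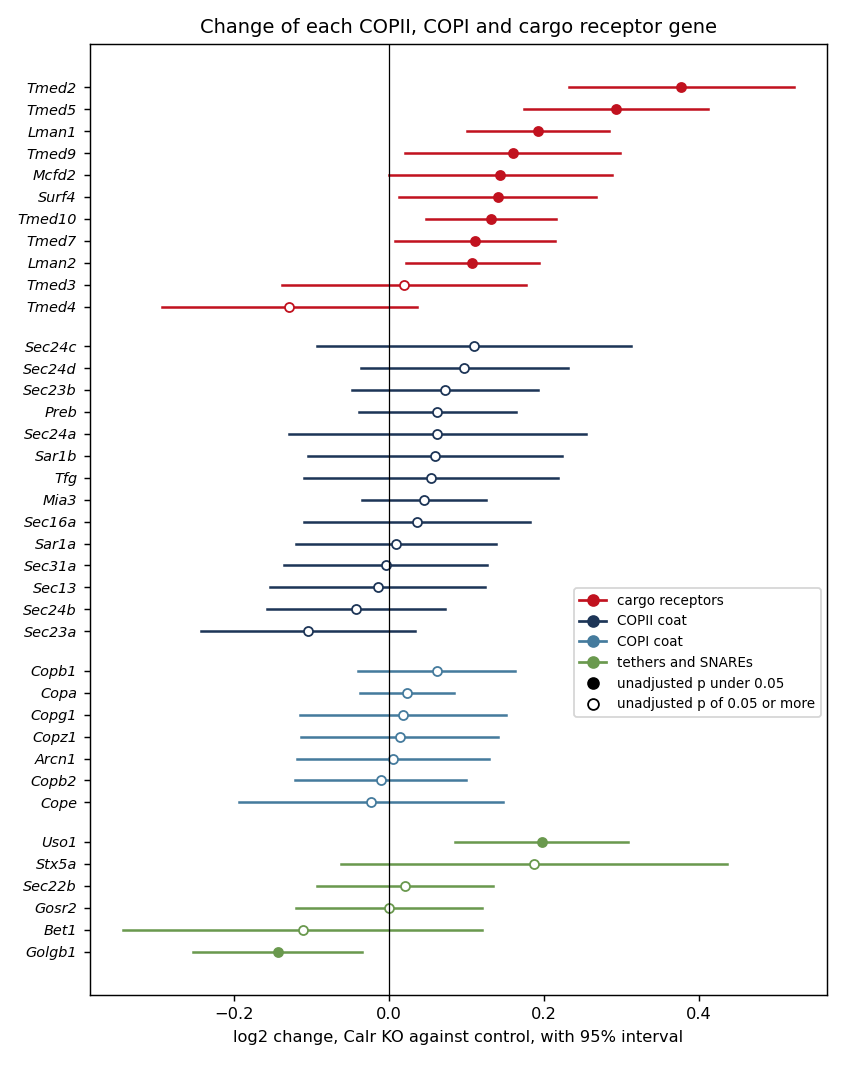
The log2 change of each of the 38 genes (horizontal axis, Calr KO against control) is drawn with its 95% interval from limma, by class and sorted by size; filled points have an unadjusted p under 0.05. Of the 11 cargo receptors 9 are filled, none of the 21 coat genes is, and no gene passed after adjustment over all genes.

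Tmed2, the p24 family member of the beta subfamily, whose tail binds coat proteins, had the highest value of the class. It held 4344, 4632 and 4544 normalised counts in the Calr KO libraries and 3864, 3193 and 3382 in the controls. The groups did not overlap, and control replicate 1 was the control nearest to the Calr KO libraries. The means were 4506 ± 148 and 3480 ± 346 (SD, n = 3), a log2 change of 0.38 (95% interval 0.23 to 0.52, limma adjusted p = 0.0696). Leaving out control replicate 1 gave 0.46 with a limma adjusted p of 0.0091, and leaving out any other library gave no call, with a highest adjusted p of 0.252. With the minimum mean lowered to 1 or removed, which tests more genes, the limma adjusted p was 0.0478 and 0.0365. The gene lies on the plus strand of chromosome 5, positions 124540695 to 124550506 on GRCm38 (ENSMUSG00000029390.13, protein coding).

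Reads of Tmed2 can be shared with Gm10698, a processed pseudogene whose transcript is 100% identical over 604 bases. Gm10698 was listed at 190, 171 and 162 in Calr KO and at 145, 168 and 145 in control, 4.1% of the Tmed2 level, and these values overlap between groups. With both added together the log2 change was 0.37 (limma adjusted p = 0.0557). Tmed10-ps, 99.39% identical to Tmed10 over 660 bases, held 1.55% of the Tmed10 level. The adjusted p of Tmed10 was 0.324 with its copy added and 0.329 without.

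Tmed5, a p24 protein of the gamma subfamily, had 1659, 1571 and 1580 normalised counts in Calr KO and 1373, 1294 and 1261 in control. Every Calr KO library was above every control by more than the spread within either group. The log2 change was 0.29 (95% interval 0.17 to 0.41), 1.23-fold, with a limma adjusted p of 0.0937. It was 0.27 to 0.33 without any 1 library and did not pass in any of them. Tmed5 lies on the minus strand of chromosome 5, positions 108106366 to 108132620 (ENSMUSG00000063406.11, protein coding).

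Lman1, also called ERGIC-53, is the mannose-binding lectin that exports glycoproteins such as coagulation factors V and VIII together with its partner MCFD2. Its values were 2872, 2886 and 3018 in Calr KO against 2595, 2601 and 2487 in control. All Calr KO libraries were above the controls, and the mean was 1.14-fold higher, a log2 change of 0.19 (95% interval 0.10 to 0.28, limma adjusted p = 0.165). Mcfd2, the calcium-binding partner, had 1542 ± 102 against 1395 ± 73.0 normalised counts (n = 3). One Calr KO library of Mcfd2, at 1443, was below the highest control, at 1457. The log2 ratio of Lman1 to Mcfd2 was 0.93 ± 0.11 in Calr KO and 0.88 ± 0.09 in control, a difference of 0.05 that did not exceed the spread between libraries (exact permutation p = 0.8). The ratio of Lman1 to Lman2 differed by 0.085 (exact permutation p = 0.2), and the groups overlap.

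Tmed10, the p24 protein of the delta subfamily that pairs with TMED2, had 4017, 3902 and 4137 in Calr KO and 3739, 3586 and 3677 in control. The groups did not overlap, and the log2 change was 0.13 (95% interval 0.05 to 0.22, limma adjusted p = 0.329). Within each library the log2 ratio of Tmed2 to Tmed10 was 0.11 to 0.25 in Calr KO and -0.17 to 0.05 in control. The ratio was thus higher in all 3 Calr KO libraries, by 0.25. By exact permutation, two-sided, p was 0.1, the smallest that 3 libraries against 3 allow, and p = 0.45 after adjustment over the 9 partner pairs compared. The ratio of Tmed9 to Tmed10 differed by 0.03 between groups (exact permutation p = 0.8), with overlap.

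Of the remaining 6 receptors, 5 had a higher and 1 a lower mean in Calr KO. Lman2 (VIP36, a lectin of the same family as LMAN1) had 3795 to 3960 normalised counts in Calr KO against 3485 to 3697 in control, without overlap. Tmed7 had 2037 to 2069 against 1816 to 1954 and Tmed9 2032 to 2173 against 1709 to 1986, both without overlap. Surf4, a receptor for soluble secreted proteins, had 3406 to 3922 against 3155 to 3432, which overlap. The log2 changes of these 4 genes were 0.11, 0.11, 0.16 and 0.14, with limma adjusted p-values of 0.465, 0.531, 0.505 and 0.518. Tmed3 and Tmed4 are p24 proteins of the gamma and alpha subfamilies. Tmed3 had 577 to 629 in Calr KO and 569 to 620 in control, a log2 change of 0.02 (95% interval -0.14 to 0.18). Tmed4 was the receptor with a lower mean in Calr KO, at 744 to 869 against 854 to 932 (log2 change -0.13, 95% interval -0.29 to 0.04). The interval of Tmed4 lies below that of Tmed5 and of Tmed2; the difference between these genes was not tested.

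**Figure D2:**
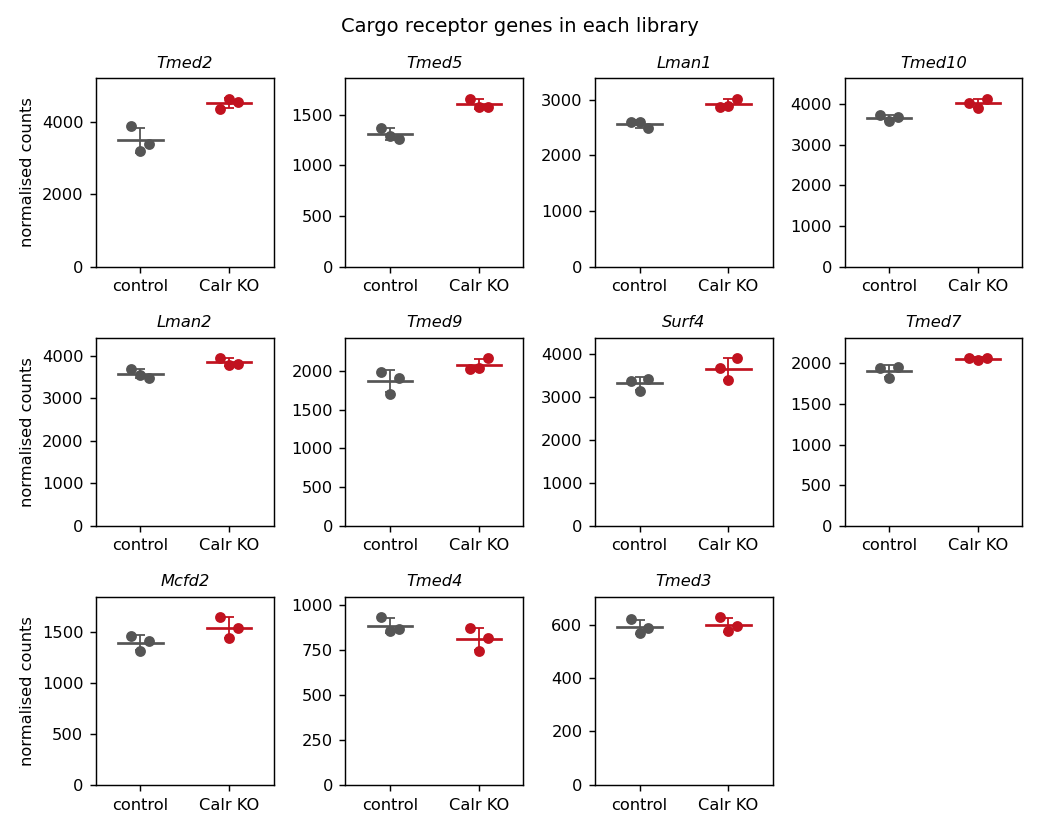
Normalised counts of the 11 cargo receptor genes are plotted for each library from an axis starting at 0, with the mean and SD of 3 libraries per group; panels run from the smallest to the largest unadjusted p. The groups are apart in Tmed2, Tmed5, Lman1, Tmed10, Lman2, Tmed9 and Tmed7 and overlap in the other 4.

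Summed over the 11 receptors, the Calr KO libraries held 27770, 27038 and 28207 normalised counts and the controls 25599, 23655 and 24452. The 21 coat genes summed to 43714, 42240 and 43304 in Calr KO and to 42792, 41943 and 42573 in control. The receptor sums are apart, and the coat sums overlap. The receptor sum rests in part on Tmed2 and Tmed10, the receptors with the most counts. In bulk RNA a change in RNA per cell and a change in the share of cells that carry the transcript cannot be told apart.

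In the COPII coat, the inner layer is formed by SEC23 and SEC24 and the outer layer by SEC13 and SEC31, and none of the 14 genes was at an unadjusted p under 0.05. Their log2 changes ran from -0.10 to 0.11, and no 95% interval reached beyond -0.24 or 0.31. Sec23a had 1600, 1442 and 1565 normalised counts in Calr KO and 1731, 1680 and 1543 in control, and its groups overlap. Its paralog Sec23b had 1165, 1196 and 1241 against 1128, 1117 and 1182, which also overlap. The log2 ratio of Sec23a to Sec23b was 0.35 ± 0.10 in Calr KO and 0.53 ± 0.13 in control, a difference of -0.18 with p = 0.2 by a two-sided exact permutation test and p = 0.45 after adjustment over the 9 pairs.

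The 4 SEC24 isoforms bind different cargo signals, with SEC24C and SEC24D the forms that TMED proteins use for GPI-anchored cargo. Sec24d had 1987, 2053 and 2167 in Calr KO and 1790, 1982 and 2037 in control, and Sec24c had 1451, 1692 and 1437 against 1604, 1327 and 1318. Both overlap between groups, with log2 changes of 0.10 (95% interval -0.04 to 0.23) and 0.11 (95% interval -0.09 to 0.31). Sec24a and Sec24b had log2 changes of 0.06 and -0.04. The ratios Sec24a to Sec24b and Sec24d to Sec24c differed between groups by 0.10 and -0.01, with exact permutation p-values of 0.3 and 0.9. The sign of the second turned when 1 of several libraries was left out.

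Preb (SEC12, the exchange factor that loads SAR1) was the COPII gene whose groups did not overlap, at 1586, 1554 and 1529 against 1474, 1492 and 1506. The difference was small, with a log2 change of 0.06 (95% interval -0.04 to 0.16, limma adjusted p = 0.754). Of the GTPases, Sar1a had a log2 change of 0.01 (95% interval -0.12 to 0.14) and Sar1b of 0.06 (95% interval -0.11 to 0.22). The ratio of the pair differed by -0.05 (exact permutation p = 0.6). Mia3 (TANGO1), which helps load bulky collagens, had the most counts of the class, 3730, 3560 and 3693 in Calr KO and 3583, 3549 and 3513 in control. Its groups overlap, and its 95% interval was -0.03 to 0.12. The outer coat genes Sec13 and Sec31a and the scaffolds Sec16a and Tfg had log2 changes of -0.01, -0.0045, 0.04 and 0.05, and those of Sec13, Sec31a, Sec16a, Tfg, Sar1a and Sec24a turned sign without some of the libraries.

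The COPI coat, or coatomer, is recruited as 1 complex of 7 subunits, and its genes had the narrowest range of log2 changes, -0.02 to 0.06. No 95% interval reached beyond -0.19 or 0.16. Copa, the alpha subunit, was the gene with the most counts of all 38, at 7309, 7263 and 7446 in Calr KO and 7187, 7235 and 7243 in control. The groups did not overlap, but the log2 change was 0.02 (95% interval -0.04 to 0.08, limma adjusted p = 0.856). With scaling by the upper quartile, 0 of the 7 COPI genes were separated upward, so the separation of Copa depends on the scaling. Copb1 had 1910, 1819 and 1839 against 1827, 1746 and 1764 and overlaps (log2 change 0.06). Cope had 1177, 1019 and 1007 against 1114, 1126 and 1010 (log2 change -0.02). The changes of Copb2, Copg1, Copz1 and Arcn1 were -0.01, 0.02, 0.01 and 0.01, and with Cope all turned sign without some library. The log2 ratio of the 2 beta subunits, Copb1 to Copb2, was -0.77 ± 0.03 in Calr KO and -0.84 ± 0.05 in control (difference 0.07, exact permutation p = 0.2).

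Among the tethers and SNAREs, 4 genes had a higher and 2 a lower mean in Calr KO. Uso1 (p115), the coiled-coil tether that captures COPII vesicles, had 3052, 2867 and 3025 in Calr KO and 2714, 2446 and 2646 in control. The groups did not overlap, and the log2 change was 0.20 (95% interval 0.09 to 0.31, limma adjusted p = 0.262). Golgb1 (giantin), the Golgi membrane protein that binds p115, had 2420, 2312 and 2577 against 2630, 2688 and 2754. All Calr KO libraries were below the controls, with a log2 change of -0.14 (95% interval -0.25 to -0.03, limma adjusted p = 0.444). The tethers thus had opposite signs, and neither passed the test over all genes.

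Of the SNAREs that fuse COPII vesicles with their target, Stx5a had 693, 528 and 628 in Calr KO and 574, 482 and 563 in control, overlapping, with a log2 change of 0.19 (95% interval -0.06 to 0.44). Bet1 had 489 to 592 against 530 to 664 (log2 change -0.11, 95% interval -0.34 to 0.12). Sec22b and Gosr2 had log2 changes of 0.02 and 0.00014, and the sign of Gosr2 turned under other scalings. The intervals of Stx5a and Bet1 are the widest of the 38, and both are among the genes with the fewest counts.

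Levels between genes were compared as normalised counts per kb of annotated exon, which depends on the transcript models of GENCODE M21. The p24 pair Tmed10 and Tmed2 stood highest in control, at 2288 ± 48.0 and 1678 ± 167 per kb (SD, n = 3), followed by Copa at 1552 ± 6.52. The spreads of Tmed2 and Copa overlap. In Calr KO Tmed10 and Tmed2 were at 2507 ± 73.3 and 2173 ± 71.1 per kb and Copa at 1577 ± 20.5. Among SEC24 isoforms Sec24d had 484 ± 32.4 per kb in control, Sec24b 399 ± 20.9, Sec24c 313 ± 35.9 and Sec24a 92.3 ± 2.74, so that Sec24a was the lowest of the 38 genes. The COPI subunits, which assemble in equal numbers, ran from 436 ± 33.4 for Copg1 to the level of Copa.

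**Figure D3:**
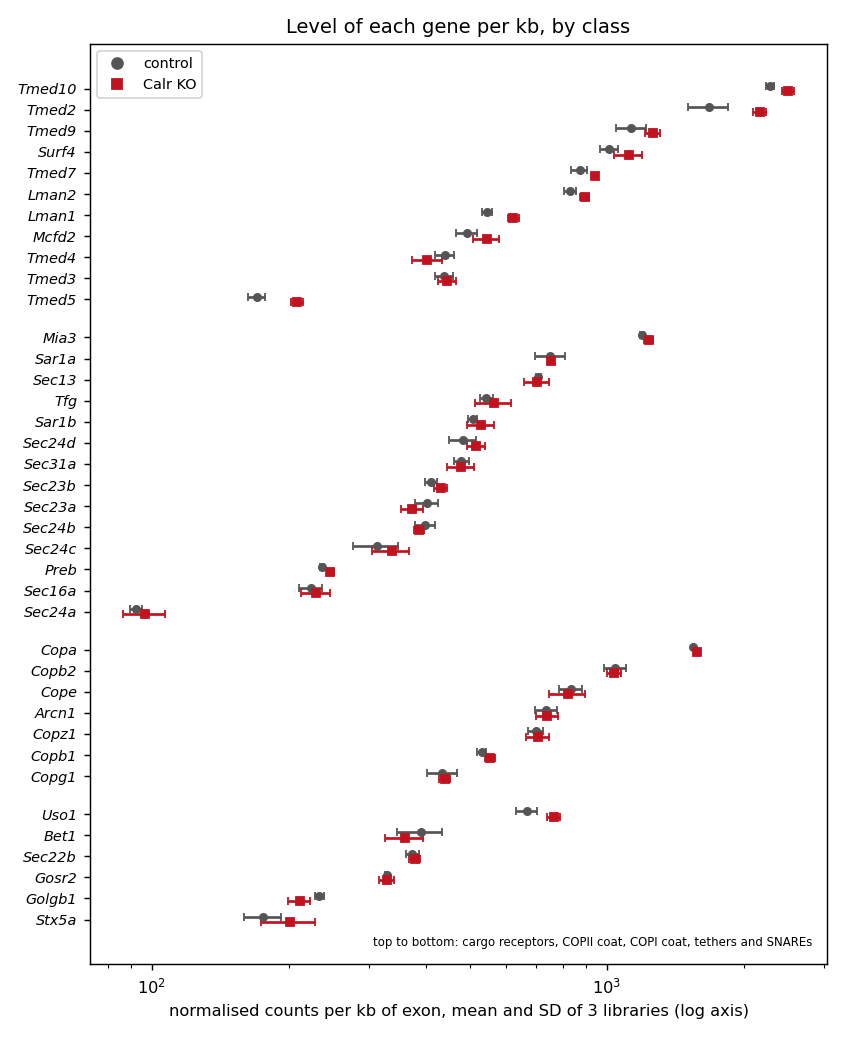
Mean level per kb of exon (horizontal log axis) with SD over 3 libraries is drawn for each gene in control (circles) and Calr KO (squares), by class. Tmed10 is the highest gene and Sec24a the lowest in both groups, and squares lie to the right of circles for 10 of the 11 cargo receptors.

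Further genes of the same route were listed by role, with earlier results of these data known. Of 72 tested genes outside the 38, 0 passed over all genes, 6 were higher (8.33%) and 1 lower at an unadjusted p under 0.05, where 4.6% of all tested genes were higher and 4.28% lower, and the median log2 change was -0.00064. Among 17 other receptor and cargo-adaptor genes, 3 were higher at that level (17.6%) and 0 lower. These were Ergic2 (1636 ± 88.5 against 1347 ± 85.1, log2 change 0.28, limma adjusted p = 0.193), Yif1a (359 ± 8.84 against 296 ± 28.8, log2 change 0.28) and Ergic3 (1059 ± 62.8 against 943 ± 38.9, log2 change 0.17), each with 3 libraries per group. ERGIC2 and ERGIC3 are membrane proteins that cycle between ER and Golgi. In all 3 genes every Calr KO library was above every control, which is 17.6% of the 17 genes against 7.57% of all tested genes. Over the 72 genes, 6 were separated upward (8.33%) and 4 downward, where 7.28% of all tested genes were separated downward. Kdelr1, a receptor that returns escaped ER proteins, was separated downward, at 490, 521 and 530 against 585, 577 and 532 (log2 change -0.14, 95% interval -0.30 to 0.03).

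The median of these 17 genes was 0.0064, below that of the 11 receptors, a difference that was not tested. The TMED and LMAN genes among the 17, Tmed1, Tmed8 and Lman2l, had log2 changes of 0.10, -0.07 and -0.03. Their groups overlap. Among 36 further tethers and SNAREs, Nbas, Trappc2l and Rint1 were higher at an unadjusted p under 0.05, with log2 changes of 0.18, 0.38 and 0.21, which is 8.33% of the 36 against 4.6% of all tested genes. Of these 36 genes, 3 were separated upward (8.33%, against 7.57% of all tested genes). Separated downward were 2, Trappc3 and Bnip1, with log2 changes of -0.12 and -0.14, where 7.28% of all tested genes were separated downward. NBAS and RINT1 belong to the complex that receives COPI vesicles at the ER. Other genes of this complex and its SNAREs in the list did not share the rise. Use1 had a log2 change of 0.14, Zw10 of -0.0062, Stx18 of -0.034 and Bnip1 of -0.14, each with an unadjusted p above 0.05. Among 11 further COPI genes, 1 was lower at an unadjusted p under 0.05, as were 4.28% of all tested genes. It was Arf5, a GTPase of the family that recruits the coat (749 ± 8.77 against 858 ± 58.3, n = 3, log2 change -0.19, limma adjusted p = 0.460). Of 8 further COPII genes none was at an unadjusted p under 0.05, and Sec23ip and Sec16b had the smallest p, with log2 changes of 0.09 and 0.15. In 35 genes of clathrin, its adaptors and retromer, which coat vesicles of other routes, the median was -0.03, with 0 called over all genes and Ap2m1 (0.18) and Snx5 (0.11) higher and Ap3d1 (-0.11) lower at an unadjusted p under 0.05. The 2 higher genes are 5.71% of these 35, near the 4.6% of all tested genes. The 1 lower gene of the 35 stands beside 4.28% of all tested genes.

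**Figure D4:**
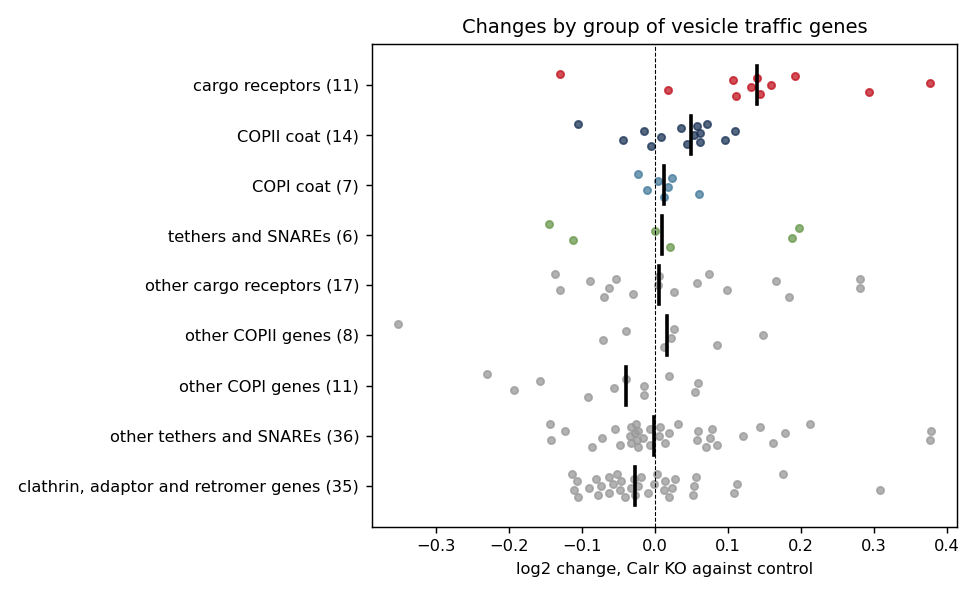
Each point is the log2 change of 1 gene (horizontal axis) in the 4 classes described here (coloured) and in 5 further lists (grey), with the number of tested genes in brackets and a black bar at the median. The bar of the 11 cargo receptors is at 0.14, and the other bars lie between -0.04 and 0.05.

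Promoter sequences were read for the genes to look for elements known from the unfolded protein response, the transcription programme that ER stress sets off. RefSeq windows on GRCm38.p6, 250 bases before to 50 after a start, matched 33 of the 38 genes, and 8 of the 11 receptors. Both strands were searched. The ER stress element (CCAAT, 9 bases, CCACG) and the ER stress element II (ATTGG, 1 base, CCACG) were in 0 of the 33, and in 0.137% and 0.0444% of all 27025 genes with a window. The UPR element TGACGTGG was in 5 of the 33, which is 15.2%, against 0.714% of all genes and 1% of the tested genes. None of the 8 receptor windows holds it; Tmed2, Lman1 and Tmed7 have no entry in the table. The 5 windows belong to the coat subunits Copb1, Copb2, Sec23a and Sec24d and the SNARE Stx5a, none of which was at an unadjusted p under 0.05. The cAMP response element TGACGTCA was in 2 of the 33 (Cope and Gosr2), or 6.06%, against 2.03% of all genes and 3.69% of the tested genes.

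Stx5a holds the element at 2 places, so that there are 6 in all. One per gene is shown, to let the elements and their flanks be compared, with the element in capitals, read 5′ to 3′ on the strand of the gene; CCACGTCA is the same element on the other strand. The element of Stx5a that is not shown lies 40 to 47 bases after the start, where the 10 flanking bases run past the window. Copb1 is at chr7:114254691-114254718 (minus strand), Copb2 at chr9:98563714-98563741 (plus), Sec23a at chr12:59011994-59012021 (minus), Sec24d at chr3:123267460-123267487 (plus) and Stx5a at chr19:8741423-8741450 (plus).
Copb1: ccgcccccttCCACGTCAgccaaggact
Copb2: cccggaagttCCACGTCAgtgggttggc
Sec23a: tcctccccttTGACGTGGcagaggcggc
Sec24d: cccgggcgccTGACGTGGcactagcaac
Stx5a: ggcgcagcagCCACGTCAccgagttagg

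The 6 elements lie between 28 bases before the start, in Copb1, and 47 bases after it, in Stx5a. The short core CCACG, which the UPR element contains on its other strand, was in 24 of the 33 genes with a window (72.7%). Of the 8 receptor genes with a window, 7 held it (87.5%), against 35.5% of all genes and 53% of the tested genes. A match of letters is a description of the window and does not show binding.

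For the 3 genes of smallest unadjusted p that have 1 window, the 250 bases before the start are shown, with each CCACG, on either strand, in capitals. They are Tmed5 (chr5:108132621-108132870, minus strand), Uso1 (chr5:92137688-92137937, plus) and Tmed10 (chr12:85374718-85374967, minus).
Tmed5: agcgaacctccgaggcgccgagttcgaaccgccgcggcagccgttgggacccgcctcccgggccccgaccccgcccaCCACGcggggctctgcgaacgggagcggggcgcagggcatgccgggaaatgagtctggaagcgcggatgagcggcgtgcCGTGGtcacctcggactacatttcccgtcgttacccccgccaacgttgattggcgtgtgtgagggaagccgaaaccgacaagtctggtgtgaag
Uso1: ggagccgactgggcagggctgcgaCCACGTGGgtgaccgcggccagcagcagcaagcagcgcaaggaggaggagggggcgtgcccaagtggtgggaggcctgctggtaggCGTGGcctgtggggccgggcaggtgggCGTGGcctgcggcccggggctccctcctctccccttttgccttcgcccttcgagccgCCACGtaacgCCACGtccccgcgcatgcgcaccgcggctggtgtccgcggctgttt
Tmed10: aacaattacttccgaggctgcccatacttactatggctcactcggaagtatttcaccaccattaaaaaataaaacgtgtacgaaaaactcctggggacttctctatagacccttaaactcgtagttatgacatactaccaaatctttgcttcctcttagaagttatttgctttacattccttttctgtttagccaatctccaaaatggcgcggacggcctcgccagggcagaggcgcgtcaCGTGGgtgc

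Tmed5 holds 2 cores in this stretch, Uso1 6, of which 2 overlap on opposite strands, and Tmed10 1. The stretches also differ in base composition, with a GC content of 68.4% in Tmed5, 73.2% in Uso1 and 44.8% in Tmed10.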

How the data were processed

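The deposited values are a signal, gene counts that the authors normalised with DESeq2, per the labels. Per the submitters' processing notes the build was mm10 and the tools were DESeq2 1.34.0, Salmon 0.14.1 and STAR 2.6.1d, with no role or order; which annotation was used is not given there. Values of 100 to 1000 reads were whole multiples of the estimated worth of 1 read, within 0.02, for 3.12% to 6.02%. That worth was rounded too coarsely for this range to show whether the counts were whole. Of values near 1 read or below, 79.3% to 82.9% were whole multiples. Counts were not rebuilt, and a test for log values was used.

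Genes with a mean of at least 10 were tested in limma 3.58.1 (R 4.3.3) on log2(value + 1), two-sided, with a variance prior that follows the mean and Benjamini-Hochberg adjustment over all 13199 genes, and checked on simulated data. Fold changes are on this scale, which understates low genes. The limma test was also checked on simulated data, but no result is given for changes as small as those of the cargo receptors. That check therefore does not show whether such changes could be called. Differences in log2 ratio of 9 partner pairs were tested by exact permutation over libraries. Transcripts at least 95% identical over 300 bases or more were taken as copies; adding them to their member was an alternative chosen after seeing the data, as was the background of genes with a mean of at least 500. Gene positions and exon lengths are from GENCODE M21 on GRCm38, which matches mm10.

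The members and lists were chosen with earlier results of these data known. Values in each library are given for members that passed in any setting, the 3 of smallest p and the 1 of highest mean in each class, and some chosen after their values were seen. Same-numbered libraries did not deviate together (correlations -0.06, -0.01 and 0.0014), and the main test did not pair them. These correlations cannot show whether same-numbered wells were handled together.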

Additional observations from a re-analysis of the deposited data

How the results depend on the processing

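Results were recomputed in 17 other ways, 6 of them leaving out a library. Among the 38 genes 0 passed in 14 of them; 1 cargo receptor passed, Tmed2, in the other 3, with a mean of at least 1 (adjusted p = 0.0478), with no filter (0.0365) and without control replicate 1 (0.0091). Over all genes 37 passed, 2 with a single variance prior, and 20 to 34 without 1 library, the fewest (20 and 21) when Calr KO replicate 1 or 3 was dropped and 22 when control replicate 2 or 3 was. With the replicate number as a replicate block 0 of the 38 genes passed and Tmed2 had an adjusted p of 0.130. The class median of the cargo receptors was 0.10 to 0.17 without 1 library, that of the COPII coat 0.02 to 0.06 and that of the COPI coat -0.0057 to 0.03. Of the 11 receptors 10 kept their sign in all 17 settings, of the 14 COPII genes 8, of the 7 COPI genes 2, and of the 6 tethers and SNAREs 5.

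Genes near 0 turned sign when 1 library was left out, with no call on either side. The ranges of their log2 changes without 1 library were -0.033 to 0.047 for Arcn1, -0.040 to 0.034 for Copb2, -0.096 to 0.017 for Cope, -0.018 to 0.080 for Copg1, -0.024 to 0.060 for Copz1, -0.028 to 0.026 for Gosr2. They were -0.030 to 0.070 for Sar1a, -0.062 to 0.026 for Sec13, -0.0085 to 0.095 for Sec16a, -0.00071 to 0.15 for Sec24a, -0.044 to 0.052 for Sec31a, -0.0031 to 0.13 for Tfg and -0.016 to 0.053 for Tmed3. Scaling by the upper quartile gave -0.0056 for Arcn1, -0.011 for Gosr2 and -0.0019 for Sar1a, and Gosr2 was at -0.0021 with equal column totals and -0.0021 with voom weights. The differences in log2 ratio ran from -0.16 to 0.074 for Sec24d to Sec24c, -0.019 to 0.059 for Tmed9 to Tmed10 and -0.12 to 0.024 for Sar1a to Sar1b. The cause of these turns was not tested.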
